A study of Mus musculus with 10 samples.

Results

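The creatine cycle genes Ckb, Gatm, Gamt, Slc6a8 and Alpl, together with Pm20d1, were followed through RNA-seq of mouse inguinal white adipose tissue (iWAT), the fat pad of the groin. These 6 genes were taken by name from the 51826 genes listed, of which 33120 have an exon length and can hold exon reads. The rule was the gene name alone, but the names were chosen with earlier results of these data known.

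Dietary and generational groups were sequenced in wild type C57BL/6 males, with 1 library per mouse. The F0-CD and F0-LPD groups held 2 males each, 10 to 12 weeks old, that had eaten a control diet (CD) or a low-protein diet (LPD) after weaning. The F1-CD and F1-LPD groups held 3 sons each, 5 weeks old, of fathers fed CD or LPD; the sons, their mothers and the founding generations were themselves kept on CD. F0 and F1 also differ in age, which cannot be told apart from generation. Whether their libraries were prepared and sequenced together is not given in the labels.

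Creatine is built from arginine and glycine and charged with phosphate by creatine kinases. In thermogenic fat, creatine can be phosphorylated in mitochondria and the phosphate then removed again by a phosphatase, so that ATP is spent and heat released without uncoupling protein 1 (Ucp1). Pm20d1 encodes a secreted enzyme that joins fatty acids to amino acids, and the resulting N-acyl amino acids can uncouple respiration directly.

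The libraries held 6351075 to 10044546 exon reads, and 3 reads, taken as the lowest level told from absence, were worth 0.299 to 0.472 CPM (counts scaled to 1000000 exon reads). That floor was scaled by raw totals, whereas the CPM of genes was also normalized across libraries. All 9 adipocyte markers were listed above 0 in every group, with a summed level of 13107 to 21616 CPM. The F1-LPD libraries stood apart in composition: exons took 39.3 to 45.4% of the reads on genes, against 49.2 to 51.2% in F1-CD and 51.4 to 54.7% in F0, with the lowest share in F1-LPD replicate 1. For that reason the F1 values are also given without that library. The remaining F1-LPD libraries, at 45.4%, still lay below every F1-CD library. Mitochondrial rRNA took 13.5 to 18.2% of the reads on genes in F1-LPD, 9.29 to 10.5% in F1-CD and 9.59 to 12.4% in F0. Its share was highest in F1-LPD replicate 1.

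Only the DNA just before each start site is shown for orientation, for the genes with a RefSeq promoter entry. RNA-seq does not measure promoters. RefSeq (GRCm38.p6) had entries for 4 of the 6 genes, Ckb, Gatm, Gamt and Alpl, and the 250 bases upstream are printed 5′ to 3′ on the gene's own strand, which is the minus strand in each case. Capitals mark a TATAAA or a GC box (GGGCGG), read on either strand; Alpl has a further start, and the first is shown.
Ckb, chr12:111672339-111672588: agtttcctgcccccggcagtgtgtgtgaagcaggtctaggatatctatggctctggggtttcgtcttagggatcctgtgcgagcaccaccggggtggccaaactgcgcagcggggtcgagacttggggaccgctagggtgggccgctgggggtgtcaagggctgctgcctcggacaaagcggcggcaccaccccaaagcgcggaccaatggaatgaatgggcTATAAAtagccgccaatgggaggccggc
Gatm, chr2:122611278-122611527: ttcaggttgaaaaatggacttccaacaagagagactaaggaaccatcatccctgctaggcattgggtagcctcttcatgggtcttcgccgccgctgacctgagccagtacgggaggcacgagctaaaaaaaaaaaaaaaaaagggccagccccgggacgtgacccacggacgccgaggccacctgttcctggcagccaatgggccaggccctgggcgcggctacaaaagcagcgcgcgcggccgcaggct
Gamt, chr10:80261013-80261262: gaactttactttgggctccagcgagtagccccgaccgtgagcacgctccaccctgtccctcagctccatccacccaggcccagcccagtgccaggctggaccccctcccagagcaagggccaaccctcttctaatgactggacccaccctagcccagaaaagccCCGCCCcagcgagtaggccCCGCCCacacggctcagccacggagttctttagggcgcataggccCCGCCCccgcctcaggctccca
Alpl, chr4:137796385-137796634: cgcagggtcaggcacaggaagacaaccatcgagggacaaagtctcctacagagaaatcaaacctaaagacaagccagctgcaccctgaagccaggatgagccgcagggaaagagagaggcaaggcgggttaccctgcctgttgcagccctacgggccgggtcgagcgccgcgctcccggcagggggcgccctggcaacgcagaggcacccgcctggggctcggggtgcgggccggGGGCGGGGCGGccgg
The Ckb window held a TATAAA beginning 28 bases before the start, a motif present in 13.6% of the 32851 promoters in the table. The Gamt window held 3 GC boxes and that of Alpl 2 overlapping ones, and at least 1 GC box was present in 35.7% of all promoters, counted in windows that run 50 bases past the start. The cAMP response element TGACGTCA, the E-box CACGTG and the oestrogen-related receptor element TCAAGGTCA were searched on both strands too, and none of these letters occurred in the 4 windows shown; they occurred in 1.79%, 7.15% and 0.423% of all promoters. The shorter element TGACG, contained in TGACGTCA, occurred in 20.8% of all promoters and not in these windows. The window of the further Alpl start, not printed, held a TGACG beginning 128 bases before that start. It also held a TATAAA beginning 192 bases before it.

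Measured per length, as reads scaled to exon length and library total (RPKM), Ckb, which encodes the brain-type creatine kinase, had the highest level of the 6. Its mean over 10 libraries was 4.83 RPKM, above 69.2% of the genes tested. Gamt, Slc6a8 and Gatm followed at 3.75, 1.79 and 1.14 RPKM. Alpl and Pm20d1 were low, at 0.501 and 0.377 RPKM, above 17.1% and 13.2% of the genes tested. Ckb lay above Gamt in 8 of 10 libraries and below it in F0-LPD replicate 2 and F1-LPD replicate 2, so these neighbours did not differ beyond their spread. Gamt, Slc6a8 and Gatm kept that order in every library, although their ranges over all libraries overlapped. The lowest Gatm library (0.829 RPKM) lay above the highest Alpl library (0.738 RPKM), and Alpl lay above Pm20d1 in all libraries except the 2 of F0-LPD.

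**Figure D1:**
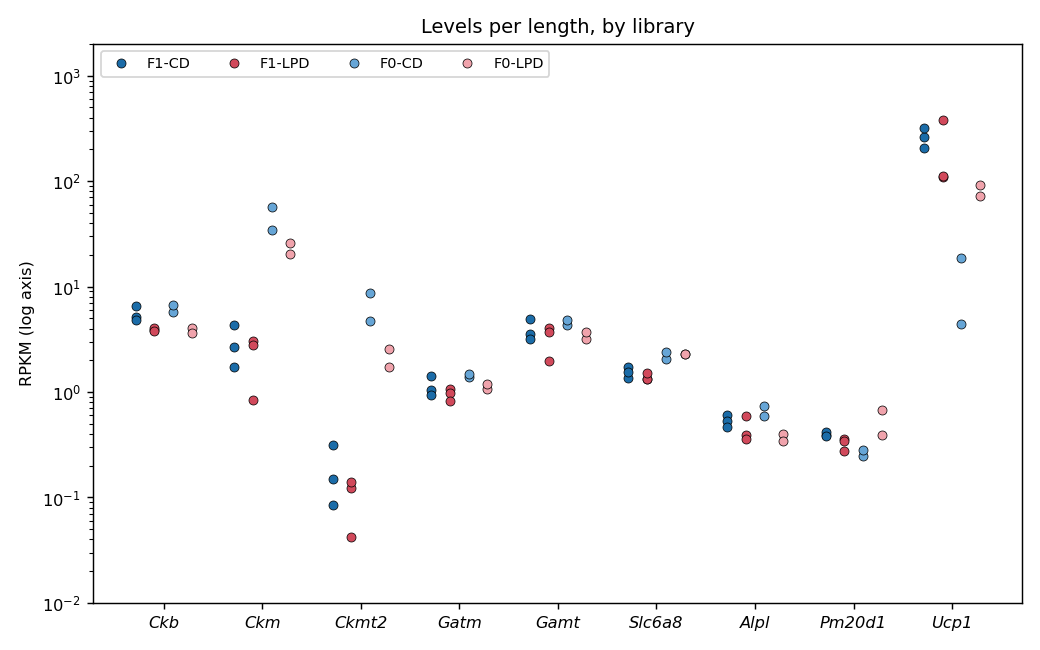
RPKM on a log axis for the 6 genes and, beside them, the muscle creatine kinases Ckm and Ckmt2 and Ucp1; each point is 1 library, coloured by group. Ckb spans 3.65 to 6.67 RPKM over all 10 libraries, while Ckm spans 0.841 to 56.6 and Ucp1 4.39 to 383 RPKM.

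The first step of creatine synthesis is catalysed by GATM, which moves the amidino group of arginine onto glycine. Gatm had 36 to 84 exon reads per library. Its level was 6.75, 8.91 and 5.64 CPM in F1-CD and 8.11, 6.37 and 5.61 CPM in F1-LPD, so the groups overlapped. In F0 it was 7.95 and 8.39 CPM on CD and 6.41 and 7.02 CPM on LPD, which did not overlap. Neither difference passed the test: the log2 fold change was -0.08 ± 0.25 (SE) in F1 and -0.28 ± 0.19 in F0, with adjusted p = 0.916 and 0.554 (edgeR's quasi-likelihood test, Benjamini-Hochberg over all genes tested). Without F1-LPD replicate 1 the F1 change was -0.24 (adjusted p = 0.774, edgeR). The 95% interval of the F0 change ran from -0.73 to 0.16 on the log2 scale.

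GAMT completes creatine by methylating guanidinoacetate with S-adenosylmethionine. Gamt stood at 11.1, 14.8 and 9.14 CPM in F1-CD and 7.20, 12.7 and 12.2 CPM in F1-LPD, with F1-LPD replicate 1 the lowest of all 10 libraries. The F1 change was -0.12 ± 0.25 (adjusted p = 0.867, edgeR) and changed sign to 0.10 without F1-LPD replicate 1. In F0, Gamt was 12.0 and 13.0 CPM on CD and 9.25 and 10.5 CPM on LPD, which did not overlap; the log2 change of -0.34 ± 0.17 did not pass the test (adjusted p = 0.373, edgeR). The ratio of Gamt to Gatm in RPKM was 3.0 to 3.45 in F0-CD, F0-LPD and F1-CD, and 1.84 to 4.50 in F1-LPD.

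Slc6a8 encodes the creatine transporter of the plasma membrane and differed least between diets. It was 15.1, 18.5 and 16.1 CPM in F1-CD against 17.5, 15.1 and 17.6 CPM in F1-LPD, and 20.7 and 23.5 CPM in F0-CD against 24.2 and 23.3 CPM in F0-LPD. The groups overlapped in both generations. The log2 change was 0.01 ± 0.14 in F1, with a 95% interval from -0.30 to 0.33, and 0.10 ± 0.12 in F0, with an interval from -0.18 to 0.38 (adjusted p = 0.976 and 0.778, edgeR). Without F1-LPD replicate 1 the F1 change was -0.016.

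Ckb was lower on LPD in F0, and it was the one gene of the 6 to pass the test in a diet comparison. In F0 it stood at 31.9 and 36.3 CPM on CD and at 23.5 and 20.6 CPM on LPD, so that both LPD libraries lay below both CD libraries. The log2 fold change was -0.63 ± 0.12, or a 1.54-fold lower level (adjusted p = 0.0406, edgeR; 95% interval from -0.91 to -0.34). In bulk tissue, fewer cells of a type and less RNA per cell cannot be told apart. An exact permutation test of 2 mice against 2 cannot give less than 0.33, which is the value Ckb gave.

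The Ckb call lay close to the threshold. It was lost in DESeq2 (adjusted p = 0.0832), with intron reads added (0.0667), in a fit of all 4 groups (0.0742), without F0-CD replicate 2 (0.191) and without F0-LPD replicate 2 (0.196), while the log2 change stayed between -0.73 and -0.53 when any 1 library was left out. Between 81.1 and 89.0% of Ckb exon reads mapped uniquely, and on those alone the change was -0.65 (adjusted p = 0.0336, edgeR).

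In F1, Ckb was 32.0, 38.9 and 28.2 CPM for CD fathers and 28.2, 25.1 and 24.8 CPM for LPD fathers. The groups did not overlap, but the lowest F1-CD library, 28.22 CPM, lay just above the highest F1-LPD library, 28.17 CPM. The log2 change was -0.34 ± 0.14 and did not pass the adjusted test (adjusted p = 0.262, edgeR); it was -0.40 without F1-LPD replicate 1 and -0.20 without F1-CD replicate 2. The exact permutation test gave 0.1, the smallest value that 3 mice against 3 allow.

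Relative to the creatine transporter, Ckb was lower on LPD in both generations. The ratio of Ckb to Slc6a8 in RPKM was 2.77 and 2.78 in F0-CD and 1.59 to 1.75 in F0-LPD. It was 3.15 to 3.81 in F1-CD and 2.53 to 3.0 in F1-LPD. This ratio was formed after the values of both genes were seen and was not tested.

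Alpl encodes tissue-nonspecific alkaline phosphatase, the enzyme that can hydrolyse phosphocreatine in thermogenic fat. With 21 to 56 exon reads per library, its counting error alone was 13.4 to 21.8% of the value. It was 4.59 and 5.59 CPM in F0-CD and 3.26 and 2.69 CPM in F0-LPD, which did not overlap, with a log2 change of -0.77 ± 0.27 that did not pass the adjusted test (adjusted p = 0.206, edgeR). In F1 it was 5.26, 4.40 and 3.76 CPM in F1-CD and 5.97, 3.39 and 3.27 CPM in F1-LPD, where replicate 1 was the highest of all 10 libraries. The F1 log2 change was -0.08 ± 0.32, and -0.41 without that library (adjusted p = 0.935 and 0.648, edgeR).

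Pm20d1 lay higher on LPD in F0, opposite in sign to Ckb, Gatm, Gamt and Alpl. It was 3.36 and 3.70 CPM in F0-CD and 9.46 and 5.38 CPM in F0-LPD, from 30 and 37 exon reads against 90 and 46. The groups did not overlap, and the log2 change of 1.08 ± 0.31 did not pass the adjusted test (adjusted p = 0.118, edgeR); it was 0.60 without F0-LPD replicate 1 and 1.42 without F0-LPD replicate 2. In F1, Pm20d1 was 5.94, 6.13 and 5.38 CPM in F1-CD and 6.43, 5.15 and 4.36 CPM in F1-LPD. These groups overlapped, with a log2 change of -0.12 ± 0.25, and -0.27 without F1-LPD replicate 1 (adjusted p = 0.863 and 0.722, edgeR).

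**Figure D2:**
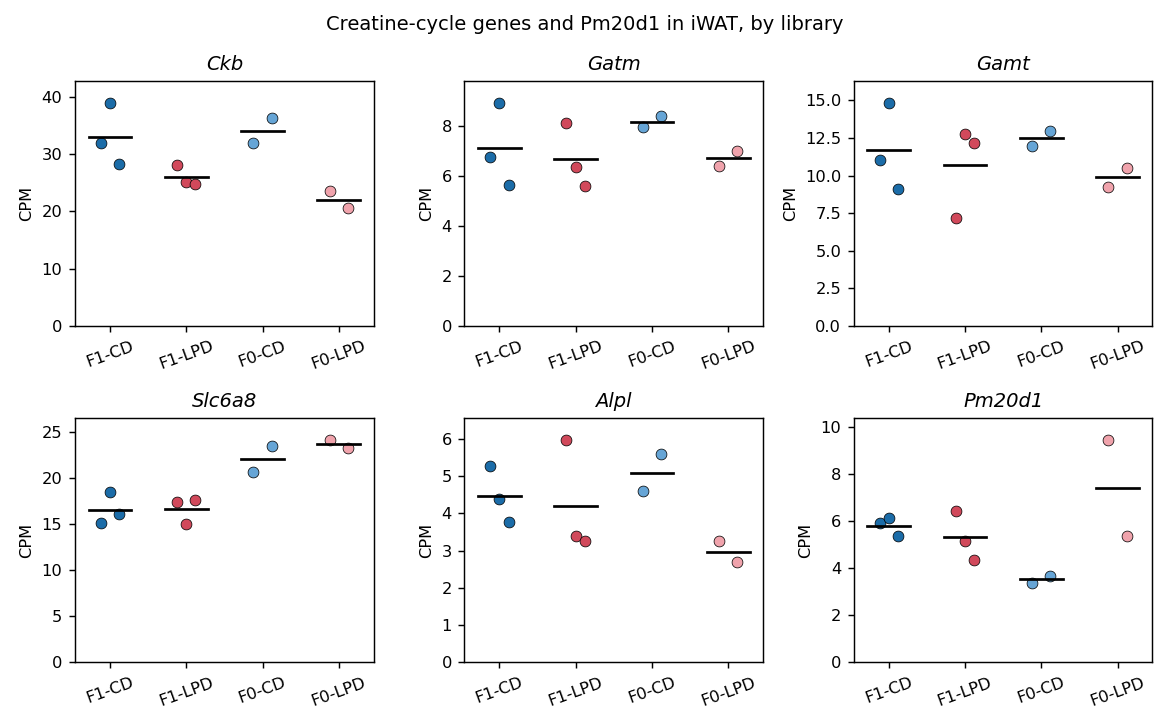
CPM of each of the 6 genes by group, 1 point per library and a bar at the group mean (3 libraries per F1 group, 2 per F0 group; each axis starts at 0). Ckb, Gatm, Gamt and Alpl sit lower in F0-LPD than in F0-CD and Pm20d1 sits higher, while in F1 only Ckb has groups that do not overlap.

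Counted together, 1 of the 6 genes passed the test in F0, where 2.5% of the 14581 genes tested did, and 0 of 6 in F1, where 1.17% of 14049 did. DESeq2 called 0 of 6 in each. At an unadjusted p under 0.05, Ckb, Alpl and Pm20d1 passed in F0 and Ckb in F1, against 15.7% and 15.3% of all genes. In F0 the groups did not overlap for 4 genes on the lower and 1 on the higher side, against 23.6% and 22.8% of all genes. In F1 they did not overlap for 1 gene, Ckb, against 20.1% of all genes in either direction. The median log2 change of the 6 genes was -0.31 in F0 and -0.10 in F1, beside 0.00035 and 0.0074 for all genes tested.

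**Figure D3:**
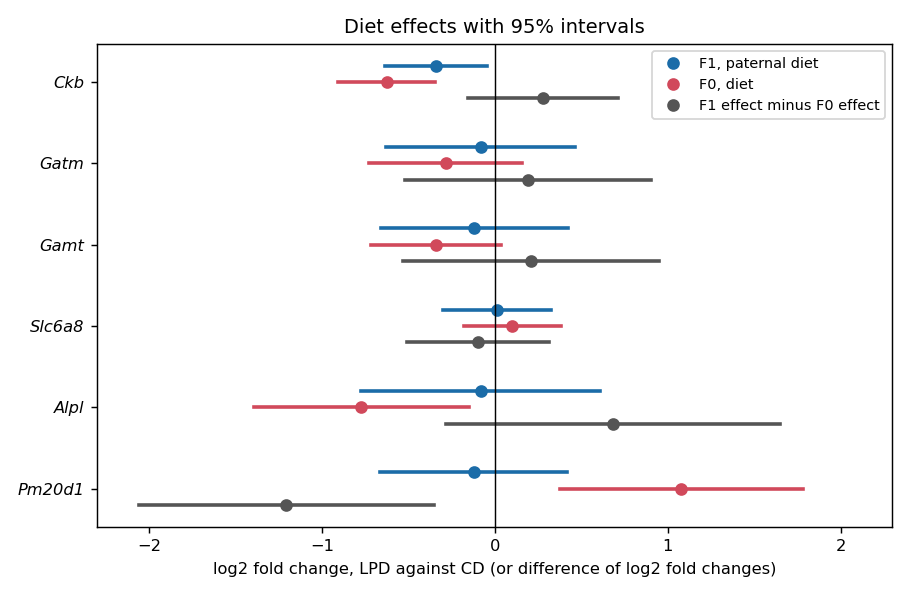
Log2 fold change of LPD against CD for each gene in F1 (paternal diet) and F0 (own diet), and the F1 effect minus the F0 effect, as points with 95% intervals from edgeR. The F0 intervals of Ckb (-0.91 to -0.34), Alpl (-1.39 to -0.15) and Pm20d1 (0.38 to 1.78) leave out 0, as do the F1 interval of Ckb (-0.63 to -0.04) and the difference for Pm20d1 (-2.06 to -0.35).

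Whether the diet effects differed between generations was asked with an interaction term over all 10 libraries. None of the 6 genes passed, where 1.25% of 15111 genes did; at an unadjusted p under 0.05 it was Pm20d1 alone, against 12.5% of all genes, and DESeq2 called none. The difference for Pm20d1 was -1.21 ± 0.39 on the log2 scale (adjusted p = 0.184, edgeR). For Ckb it was 0.28 ± 0.20, with a 95% interval from -0.15 to 0.71, and for Alpl 0.68 ± 0.45, with an interval from -0.28 to 1.65 (adjusted p = 0.62 and 0.576, edgeR). A larger Ckb change in F0 than in F1 was therefore not shown.

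Between the control groups, Slc6a8 was higher in F0-CD than in F1-CD by 0.41 ± 0.13 on the log2 scale (adjusted p = 0.0457, edgeR), 1 of 6 genes where 18.9% of all genes passed. The call was lost in DESeq2 (adjusted p = 0.108), without the filter on low counts (0.0527), and on leaving out either F0-CD library, either F0-LPD library or F1-CD replicate 1 or 3 (0.0588 to 0.335). Pm20d1 lay lower in F0-CD, 3.36 and 3.70 CPM against 5.38 to 6.13 CPM, and did not pass (log2 change -0.72 ± 0.29, adjusted p = 0.101, edgeR). Ckb differed by 0.04 ± 0.14 between these groups, with a 95% interval from -0.25 to 0.34.

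The muscle creatine kinases Ckm and Ckmt2 were higher in F0-CD than in F1-CD, and lay lower on LPD in F0 as Ckb did. Ckm, the muscle-type enzyme, was 192 and 310 CPM in F0-CD, 150 and 116 CPM in F0-LPD, and 5.29 to 25.0 CPM in F1. It was 3.86 ± 0.37 higher on the log2 scale in F0-CD than in F1-CD (adjusted p = 2.29e-05, edgeR). The LPD change in F0 was -0.92 ± 0.21 (adjusted p = 0.0605, edgeR). The change was -1.22 without F0-CD replicate 1 and -0.53 without F0-CD replicate 2. It did not pass in DESeq2 (adjusted p = 0.314), nor in edgeR's fit of all 4 groups (0.327) or with intron reads added (0.103). It passed in edgeR on uniquely mapped reads (0.0496) and without the filter on low counts (1.8e-14). P-values of the fit without the filter are too small to measure the spread between 2 mice a group. In F1 the groups overlapped, and the change was -0.18 ± 0.41, or -0.56 without F1-LPD replicate 1 (adjusted p = 0.877 and 0.646, edgeR). Ckmt2, the sarcomeric mitochondrial creatine kinase, was 13.5 and 24.3 CPM in F0-CD and 7.67 and 5.03 CPM in F0-LPD, a log2 change of -1.57 ± 0.30 (adjusted p = 0.0368, edgeR) that was lost without F0-CD replicate 2 (0.108) or F0-LPD replicate 2 (0.164) and with intron reads added (0.0701). In F1, Ckmt2 had 1 to 7 exon reads and Ckmt1, the ubiquitous mitochondrial enzyme, had 0 to 2 in every library of the series. Ckb made up 9.26 to 14.2% of the summed creatine kinase RPKM in F0 and 51.1 to 82.0% in F1.

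Skeletal muscle markers moved with diet in F0. All 12 of the muscle list (led by Acta1, Tnnt3 and Myh4, and including Ckm) lay lower on LPD, 7 of them past edgeR's test and 4 in DESeq2, and their summed level was 1824 to 2863 CPM in F0-CD against 876 to 1208 in F0-LPD, 109 to 213 in F1-CD and 51.7 to 203 in F1-LPD. Smooth muscle markers lay lower on LPD for 5 of 5 genes in each generation, 2 of them called in F0 and 1 in F1, with a sum of 321 to 333 against 232 to 234 CPM in F0 and 165 to 177 against 126 to 139 CPM in F1. Adipose progenitor markers fell past the test for 1 of 6 genes in F0, with sums of 1488 to 1700 against 1157 to 1189 CPM. In F1, 6 of 6 lay lower on LPD, 5 at an unadjusted p under 0.05 and 0 called in edgeR or DESeq2, with sums of 1026 to 1314 against 849 to 1118 CPM. No marker of these lists was at 0 across a group. Ckb lay lower in the same libraries, and the part of any of these cell types in the Ckb and Alpl values was not tested.

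**Figure D4:**
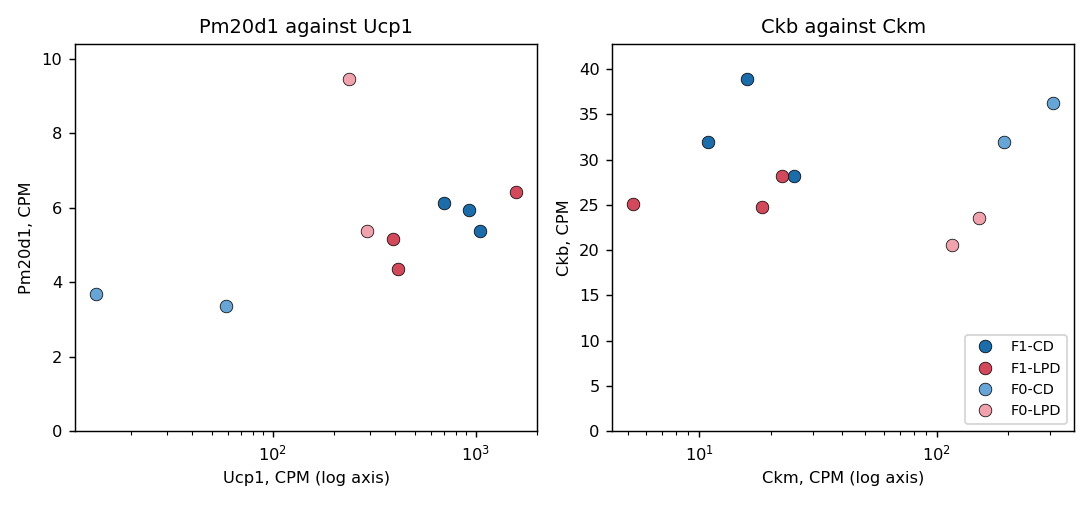
Each point is 1 library: Pm20d1 against Ucp1 (left) and Ckb against Ckm (right), in CPM, with the horizontal axes on a log scale. Both F0-CD libraries combine the lowest Ucp1 and the lowest Pm20d1, and Ckb covers a similar range in F1, where Ckm is 5.29 to 25.0 CPM, and in F0, where it is 116 to 310 CPM.

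Ucp1, the uncoupling protein of brown and beige fat, was set beside these genes as the canonical route of heat production. It was 58.5 and 13.5 CPM in F0-CD and 238 and 290 CPM in F0-LPD, a log2 change of 2.89 ± 0.47 (adjusted p = 0.0196, edgeR). The call was lost in DESeq2 (0.0873), in the fit of all 4 groups (0.0603) and without F0-LPD replicate 2 (0.0554). In F1 it was 695 to 1050 CPM in F1-CD and 389, 415 and 1583 CPM in F1-LPD, with replicate 1 the highest. The log2 change was -0.16 ± 0.43 (adjusted p = 0.904, edgeR), and -1.14 without that library (0.0189). With exon share as a covariate it was -2.64 (0.00209). Exon share does not overlap between the F1 diet groups, so that fit cannot tell diet and exon share apart. Of the 10 brown and beige adipocyte markers, led by Cox8b, Ucp1 and Cidea, 9 lay higher on LPD in F0 and 6 passed edgeR's test (1 in DESeq2, Cox7a1), and their sum was 249 to 411 CPM in F0-CD and 834 to 962 CPM in F0-LPD. In F1, 8 of the 10 lay lower on LPD and 1, Ppargc1a, was called higher in edgeR and DESeq2, with sums of 1470 to 2039 CPM in F1-CD and 962 to 2586 CPM in F1-LPD. Pm20d1 lay in the same direction as these markers in F0, and their part in its value was not tested. The ratio of Ucp1 to Ckb in RPKM was 0.658 to 3.25 in F0-CD, 17.9 to 24.9 in F0-LPD and 27.5 to 99.4 in F1.

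Among the genes that supply creatine synthesis with arginine, glycine and methyl groups, none passed edgeR's or DESeq2's test in either diet comparison. Of 13 arginine and glycine genes, 10 were tested in each generation, with 7 higher and 3 lower in F1 and 3 higher and 7 lower in F0; 2 were at an unadjusted p under 0.05 in each. The most abundant per length were Oat, which makes glutamate semialdehyde from ornithine, at 20.0 RPKM over the 10 libraries, and Shmt2, the mitochondrial serine hydroxymethyltransferase, at 3.45 RPKM. Of 12 methyl supply genes, 9 were tested, with 5 higher in F1 and 6 higher in F0, and 4 in F1 and 2 in F0 were at an unadjusted p under 0.05. Mat2a, which makes S-adenosylmethionine, and Ahcyl1, whose part in methyl supply was not tested, led that list at 23.6 and 16.0 RPKM.

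Among other methyltransferases that use S-adenosylmethionine on small molecules, Nnmt, which methylates nicotinamide, had a mean of 19.7 RPKM over the 10 libraries.

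Of 13 genes of phosphate and pyrophosphate handling, 11 were matched by name and 8 were tested. Phospho1, a phosphatase that acts on phosphocholine and phosphoethanolamine, was higher on LPD in F0, at 41.5 and 63.9 CPM against 10.9 and 18.7 CPM. Its log2 change was 1.85 ± 0.26 (adjusted p = 0.0136, edgeR). Just 7.5 to 19.3% of its exon reads mapped uniquely, and on those alone the change was 1.20 and did not pass (0.0925), nor did it in the fit of all 4 groups (0.188). In F1 it was 65.4 to 98.9 CPM in F1-CD and 51.8 to 207 CPM in F1-LPD, with a log2 change of 0.32 ± 0.42, and -0.65 without F1-LPD replicate 1 (adjusted p = 0.778 and 0.124, edgeR). Ppa1, the cytosolic inorganic pyrophosphatase, had the highest level of that list, 19.3 RPKM.

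Of 9 amino acid acylases and amide hydrolases, the enzyme class nearest to Pm20d1, 7 were tested and none passed in F1 or F0 in edgeR or DESeq2, with 1 and 3 at an unadjusted p under 0.05. Cndp2, a cytosolic dipeptidase, and Naaa, a lysosomal amidase of N-acylethanolamines, led that list at 13.9 and 9.67 RPKM, far above the 0.377 RPKM of Pm20d1.

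Calcium cycling by SERCA pumps is a further route to heat without Ucp1. In F0, 2 of 11 tested genes of that list passed, both lower on LPD and both characteristic of skeletal muscle. Atp2a1, the fast-muscle SERCA pump, was 269 and 466 CPM in F0-CD and 156 and 108 CPM in F0-LPD (log2 change -1.47 ± 0.25, adjusted p = 0.0241, edgeR). Ryr1, the muscle calcium release channel, was 71.3 and 136 CPM against 46.8 and 36.3 CPM (log2 change -1.32 ± 0.26, adjusted p = 0.0412, edgeR). Both calls were lost in DESeq2 (0.0601 and 0.155), in the fit of all 4 groups, with intron reads added and without F0-LPD replicate 2 (0.0929 and 0.19), and that of Ryr1 also without F0-LPD replicate 1 (0.0575). Atp2a2, the SERCA pump of most other tissues, was 195 to 220 CPM in F0 and led the list at 18.6 RPKM. In F1, 0 of 10 tested genes passed in edgeR, in DESeq2 or at an unadjusted p under 0.05.

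Among adenine nucleotide carriers and uncoupling proteins, 7 of 8 genes were tested, and Ucp1 in F0 was the 1 call in the diet comparisons (0 in DESeq2). In the interaction Slc25a4 was called, with the F1 effect above the F0 effect, and Slc25a5, Ucp1 and Ucp3 were called lower in F0-CD than in F1-CD; Slc25a4 and Ucp3 were picked for naming after their values were seen. Slc25a5, the adenine nucleotide translocase of proliferating cells, was 62.4 to 90.6 RPKM over the 10 libraries, with 71.1 to 78.7% of its reads unique, and just Ucp1 in that list had a higher mean, 158 RPKM.

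How alike the genes were across mice was described by Pearson's r of log2(CPM + 0.5) over the 10 libraries after the mean of each generation was subtracted; the points share libraries, depth and diet groups, and no p is given. Ckb ran most closely with Alpl (r = 0.76) and Gatm (0.72), and Gatm with Alpl at 0.69. Gamt was less alike to these (0.45 with Ckb, 0.22 with Gatm and -0.10 with Alpl), and Slc6a8 gave 0.04 with Ckb. Pm20d1 had the highest r with Ucp1 of the 6 (0.72), Slc6a8 the next (0.16), and Gamt and Ckb gave -0.65 and -0.57. With Ckm, r was 0.52 for Alpl, 0.46 for Ckb, 0.43 for Slc6a8, 0.21 for Gatm, -0.23 for Pm20d1 and -0.24 for Gamt.

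Among 14566 genes averaging 1 CPM or more, those most like Ckb were Bcam (r = 0.95) and Cxcl12 and 1110012L19Rik (0.94 each). Bcam and Cxcl12 gave log2 changes of -0.57 and -0.43 on LPD in F0 (adjusted p = 0.0435 and 0.0401, edgeR), in the same libraries that chose them. For Gatm they were Dqx1, Atf7 and Trim2 (0.93 to 0.98), for Gamt Gpc4, Uba1 and Pls3 (0.96 to 0.97), and for Slc6a8 Fam83g, Chuk and Akr1c14 (0.92 to 0.93). For Alpl they were Gm28177, Paqr3 and Nsun3 (0.93 to 0.96), and for Pm20d1 Mrpl10, Tchh and Ppp1cb (0.92 to 0.95). Of the 3 genes nearest to Pm20d1, Tchh was higher on LPD in F0 by 3.64 on the log2 scale (adjusted p = 0.0179, edgeR), in the same libraries that chose it. Tchh averaged 1.56 CPM and was not among the genes tested in F1.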

How the data were processed

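The authors isolated total RNA from iWAT, depleted rRNA, prepared directional libraries and sequenced paired reads of 36 bases, which they mapped to the mouse mm10 genome in CLC Genomics Workbench. Per the file headers, the deposited columns give raw counts of exon, intron and unique reads per gene. The deposited RPKM values divide exon reads by exon length and library total, and were used only to compare levels between genes.

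The 6 genes and all lists were chosen with earlier results of these data known. Total exon reads were tested in R 4.3.3 with edgeR 4.0.16 (filterByExpr, TMM, quasi-likelihood F test, two-sided, Benjamini-Hochberg over all genes tested, threshold 0.05), with 3 against 3 libraries in F1 and 2 against 2 in F0; the interaction and the comparison of control groups came from 1 fit of all 10 libraries. CPM values of genes are TMM-normalized over all 10 libraries together, and the floor of 3 reads is not. The SE was derived as the log2 change over the square root of F. The study gives the F1 mice different mothers; whether any share a father, and how the F0 males are related, is not given in the sources used here, so p-values measure the spread between these samples. The scripts were tested on simulated data. Intervals and the floor of 3 reads cover counting error and spread between libraries, not bias.

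Named were the 6 genes; Ucp1 and the other creatine kinases; every gene of the 8 pathway lists called in F1 or F0 and the 2 of highest mean RPKM per list; at most 3 genes per list of the 10 cell type lists; and the 3 most alike genes per member; some items that the rule names are not reported here. DESeq2 1.42.0, its size factors, no filter, unique reads, exon plus intron reads, all 4 groups, the exon share as a covariate, a replicate block and leaving out each library were alternatives. Promoter sequences are RefSeq's.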

Additional observations from a re-analysis of the deposited data

How the results depend on the processing

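Replicate numbers did not pair the samples: the correlation of deviations of same-numbered libraries was 0.039, -0.00016 and 0.0072 in F1 and 0.049 in F0, and nothing in the labels says that a number is shared. With the replicate block, 2 of the 6 genes passed in F0 (Ckb and Pm20d1, adjusted p = 0.00014 and 0.0073, edgeR), as did Ckm (2.8e-08). Among the 14581 genes tested in F0, those called rose to 656 higher and 735 lower. With 2 libraries a group, the block leaves little to measure spread from, so these F0 p-values are not read as spread between mice. Genes called with the block rose to 48 higher in F1 and 83 higher in the interaction, while Slc6a8 was not called between the control groups (0 of 6).

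Against 20 higher and 144 lower genes in F1, DESeq2 called 74 and 301, no filter 234 and 564, all 4 groups together 62 and 277, and the exon share as a covariate 1 and 14; unique reads called 42 higher. Against 172 higher and 192 lower in F0, no filter called 633 and 710 and all 4 groups together 110 and 65. The number of the 6 genes called in F0 was 0 in DESeq2, with intron reads and with all 4 groups, and 2 without the filter (Pm20d1, adjusted p = 0.00064, edgeR). Without the filter, Ucp1 gave an adjusted p of 4.6e-128 in F0 (edgeR), although its F0-CD libraries were 58.5 and 13.5 CPM. The F0 p-values of that fit are therefore not read as spread between mice. Against 54 higher and 135 lower in the interaction, DESeq2 called 110 and 243 and no filter 314 and 576. Between the control groups, 0 of 6 passed in DESeq2 and without the filter. The cause of these changes was not tested.

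Leaving out 1 library gave 1 to 140 higher and 17 to 370 lower genes in F1, 68 to 281 and 37 to 223 in F0, 5 to 132 and 14 to 263 in the interaction, and 340 to 1441 and 453 to 1592 between control groups; 0 to 1 of the 6 genes passed in F0 and between control groups, and 0 in F1 and in the interaction. The lone sample left in an F0 group is then assumed to vary like the other group.

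Signs turned in F1 with intron reads for Slc6a8 (-0.033) and with the exon share as covariate for Gamt (0.80), Slc6a8 (-0.0038) and Phospho1 (-2.17, adjusted p = 0.00062, edgeR); in the interaction, that covariate turned Gatm to -0.012. The same covariate moved F1 changes without turning them for Alpl (-1.07), Pm20d1 (-0.56), Gatm (-0.42), Ckm (-1.12) and Ucp1 (-2.64). Exon share does not overlap between the F1 diet groups, so that covariate and diet cannot be told apart in F1. With 1 library left out, F1 log2 changes ran from -0.24 to 0.12 for Gatm, -0.28 to 0.10 for Gamt, -0.049 to 0.10 for Slc6a8, -0.41 to 0.062 for Alpl, -1.14 to 0.17 for Ucp1, -0.56 to 0.24 for Ckm and -0.65 to 0.64 for Phospho1; the interaction of Slc6a8 ran from -0.19 to 0.0044, and F0-CD minus F1-CD from -0.052 to 0.18 for Ckb and -0.050 to 0.31 for Gamt. Every Ckb change in F0 and F1 kept its sign in the alternatives run. With 21 to 90 exon reads, Alpl and Pm20d1 are limited by depth.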

Other observations

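Other cell type lists differed between the groups too. Macrophage markers, led by Csf1r, Mrc1 and Cd68, lay lower in F1-LPD for 5 of 5 genes, 3 of them past edgeR's test, with a summed level of 349 to 418 CPM against 524 to 615 CPM in F1-CD; in F0 the sums were 575 to 596 CPM on CD and 488 to 505 CPM on LPD, with 1 of 5 called lower. Epithelial markers, led by Krt18, Epcam and Krt8, summed to 10.5 to 14.9 CPM in F1-CD and 1.53 to 4.88 CPM in F1-LPD, and 2 of 4 tested were called lower; Krt5 was at 0 in F0-CD and F1-LPD. Endothelial markers, led by Pecam1, Cdh5 and Kdr, gave no call in F1 or F0 at the adjusted threshold (edgeR or DESeq2). In F1, 5 of 5 lay lower on LPD, 3 of them at an unadjusted p under 0.05, with sums of 542 to 733 CPM in F1-CD and 465 to 584 CPM in F1-LPD. In F0, 2 lower and 1 higher were at an unadjusted p under 0.05, with sums of 471 to 530 CPM in F0-CD and 479 to 515 CPM in F0-LPD. B and T cell markers, led by Cd79b and Cd79a, summed to 366 to 555 CPM over the 10 libraries. In F1, 8 of 8 lay higher on LPD, 3 at an unadjusted p under 0.05 and 0 called in edgeR or DESeq2. In F0, 6 of 8 lay higher, with 1 called higher in edgeR and 0 in DESeq2. Neutrophil markers summed to 7.20 to 31.8 CPM and gave no call in F1 or F0 in edgeR or DESeq2, with 1 of 3 tested at an unadjusted p under 0.05 in F1 and 0 of 2 in F0.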
